A study of Homo sapiens with 12 samples.

Results

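Hyaluronan is a long sugar polymer of the extracellular matrix that is made at the plasma membrane by the hyaluronan synthases HAS1, HAS2 and HAS3 and cut into fragments by the hyaluronidases (HYAL1, HYAL2 and HYAL3) and by CEMIP (also named KIAA1199 or HYBID). Cells bind the polymer mainly through CD44, a transmembrane glycoprotein, and through HMMR (also named RHAMM), which is found at the cell surface and, inside the cell, on the microtubules of the mitotic spindle. Hyaluronan and its fragments are known for their part in tumour cell adhesion, migration and invasion, prostate carcinoma included. The genes described here are CD44, HMMR, HAS2, HAS3, CEMIP, HYAL1, HYAL2 and HYAL3, found by their symbols as 8 of the 26485 genes of the count table. All 8 passed the filter on low counts, and 14732 genes did so in all.

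The genes were measured by RNA-seq in spheroids of DU145, an established human prostate carcinoma cell line, in which the gene of the α2 integrin subunit (ITGA2), part of a collagen receptor, had been knocked out with CRISPR-Cas9. All 12 samples carry that knockout, and no unedited DU145 sample was analysed here. The DU145KO line had no further transfection, DU145KO+α2 had been stably transfected with the pAWneo2 plasmid carrying the α2 cDNA, and DU145KO+vector (below, the vector line) with the empty pAWneo2 plasmid. The transfected lines, but not DU145KO, were kept in geneticin, each transfected line was a single derivative of DU145KO, the promoter that drives the cDNA is not given in the sources used here, and spheroids of 8000 cells were grown without serum for 72 h (4 samples a line). The methods of the study call the 4 samples of a line independent biological replicates, and the labels do not say what was separate between them, so p-values measure the spread between these samples.

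The libraries held 13948734 to 19988111 counted reads, and 3 reads corresponded to 0.150 to 0.215 CPM, the read count scaled to library size. ITGA2 was higher in DU145KO+α2 than in the vector line by 4.11 (SE 0.16) on the log2 scale (adjusted p = 3.15e-09, edgeR's quasi-likelihood test with Benjamini-Hochberg adjustment), as the labels state. KRT8, KRT18, KRT19, EPCAM and CDH1, markers of an epithelial line, were all detected and passed the filter. CDH1 was lower in DU145KO+α2 than in the vector line, and KRT18, EPCAM and CDH1 were lower there than in DU145KO. EPCAM was also lower in the vector line than in DU145KO (log2 difference −0.83, adjusted p = 0.00093, edgeR). With the replicate number as a block, described below, KRT8 and KRT18 were also lower in DU145KO+α2 than in the vector line (adjusted p = 0.0354 and 0.00597, edgeR). KRT8 was then lower there than in DU145KO as well (adjusted p = 0.0476). The block called 26.5% and 22.3% of all tested genes in these comparisons. The androgen receptor gene had at most 1 read in any library, and of 11 immune, endothelial and fibroblast markers PTPRC, CD3E, VWF, COL1A2 and DCN had at most 1, 1, 4, 2 and 1. The other 6 passed the filter, with CD68, a lysosomal protein, at a mean of 66.2 to 70.3 CPM and COL1A1 at 9.06 to 10.7 CPM. Of these, KDR was higher in DU145KO+α2 than in the vector line (1.14, adjusted p = 0.0183), and PDGFRB was lower there than in the vector line (−1.47, adjusted p = 0.0322) and in DU145KO (−1.48, adjusted p = 0.0396). PDGFRB rests on few reads, 2 to 6 a library in DU145KO+α2, 6 to 12 in the vector line and 6 to 11 in DU145KO. With the block, KDR was also lower in the vector line than in DU145KO (−1.09, adjusted p = 0.00857, edgeR), where 13.4% of all tested genes were called. The summed levels of the immune, endothelial and fibroblast lists were 57.0 to 76.6, 2.35 to 3.79 and 9.94 to 11.6 CPM in DU145KO+α2, 55.1 to 82.3, 1.09 to 2.55 and 8.40 to 12.2 CPM in the vector line, and 49.3 to 84.2, 2.81 to 3.63 and 9.71 to 12.5 CPM in DU145KO. The part of these genes in the results was not tested.

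CEMIP and HAS3 carried the differences between the lines, and the other 6 genes did not pass the test in any comparison. A gene was called at an adjusted p below 0.05 over all 14732 genes. Between DU145KO+α2 and the vector line, 1 of the 8 genes passed, CEMIP, which was 5.50-fold higher with α2, while 11.9% of all tested genes passed. Between DU145KO+α2 and DU145KO, 1 of the 8 passed, HAS3, which was 1.66-fold higher with α2, against 8.17% of all tested genes. Between the vector line and DU145KO none of the 8 passed by edgeR, against 2.34% of all tested genes. At the unadjusted threshold of 0.05, CEMIP alone of the 8 was past it in that comparison. By the Wald test of DESeq2 and by limma with voom 1 of the 8 passed, CEMIP. The count over all genes is given for DESeq2 in the closing section, and none is given for voom. The called shares of the 8 genes rest on 1 gene each and are near the background. Where a fold change above 2 was also asked for, CEMIP was called against the vector line (2.21% of all tested genes) and none of the 8 in the other comparisons (2.1% against DU145KO and 0.835% between the lines without α2). The median log2 fold change of the 8 genes was 0.12, 0.00 and −0.00 in the 3 comparisons, and that of all genes was −0.01, −0.00 and −0.00. The first 2 comparisons share the DU145KO+α2 samples, and each other pair of comparisons shares a line as well.

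**Figure D1:**
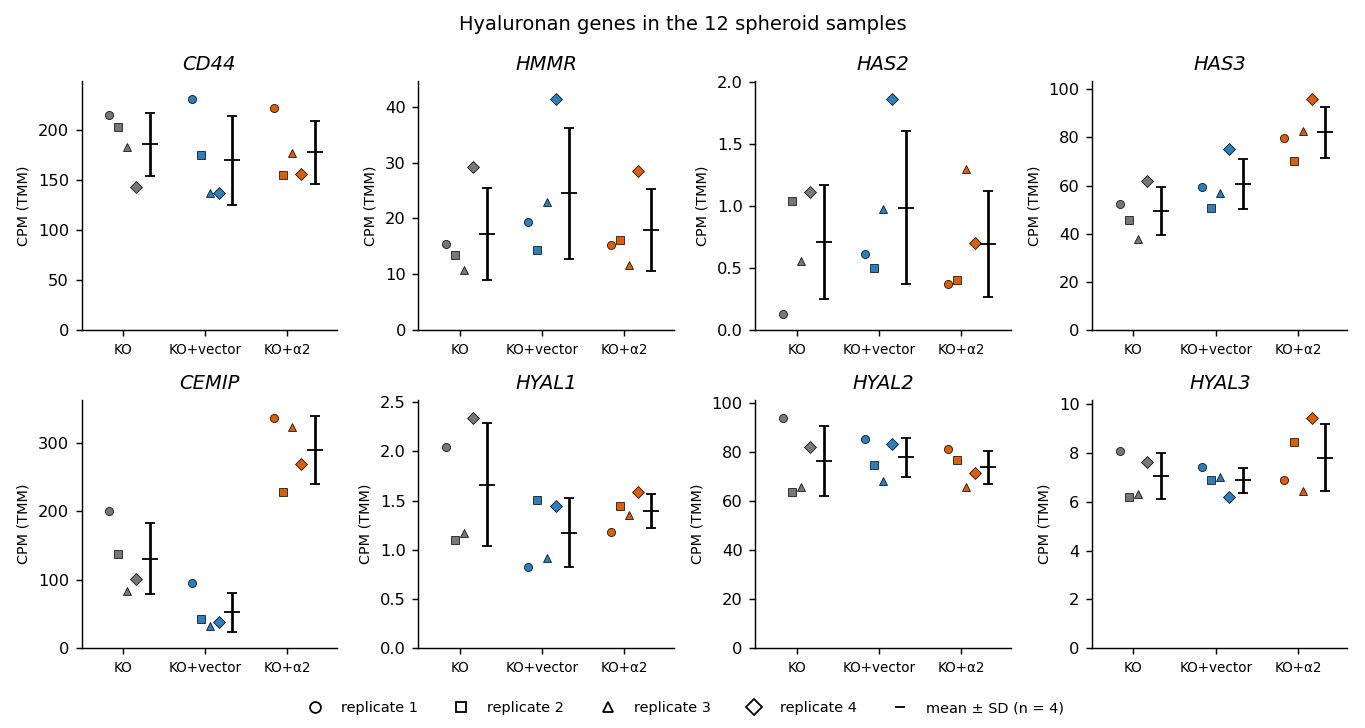
Expression of the 8 hyaluronan genes in each of the 12 spheroid samples, in CPM after TMM scaling on linear axes that start at 0, with the replicate number as the symbol and the mean ± SD (n = 4) beside the points. The 4 DU145KO+α2 samples of CEMIP (229 to 336) lie above all other samples, those of HAS3 lie above all DU145KO samples, and the lines overlap for the other 6 genes.

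The levels of the 8 genes were compared with each other as RPKM, which are scaled to library size and divided by gene length. HYAL2 and CD44 were the most abundant in DU145KO, with mean RPKM of 31.4 and 27.6, and HYAL1 and HAS2 were the least abundant, at 0.560 and 0.214. In DU145KO the order was HYAL2, CD44, CEMIP, HAS3, HMMR, HYAL3, HYAL1 and HAS2, and neighbours in that order overlapped between their samples except HYAL3 with HYAL1 and HYAL1 with HAS2. CEMIP changed its place in the order from line to line. It was the most abundant of the 8 in DU145KO+α2 (39.8 RPKM), although its samples overlapped those of HYAL2 (30.7 RPKM), and it was at place 5 of the 8 in the vector line (7.22 RPKM), where it overlapped HMMR (7.78 RPKM). Of all 26485 genes of the table, those not tested included, 93.0% had a lower mean RPKM than CEMIP in DU145KO+α2, 83.8% in DU145KO and 70.6% in the vector line.

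CEMIP encodes a secreted and membrane-associated protein needed for hyaluronan cleavage in fibroblasts. The gene lies on chromosome 15 from 80779343 to 80951776 on the plus strand (GRCh38, GENCODE v44 annotation). The 250 bases before its RefSeq transcription start (GRCh38.p14, chr15:80779120-80779369, plus strand) are shown because CEMIP differed most between the lines. The end of this window lies past the GENCODE start. Capitals mark matches to the GC box GGGCGG, on either strand, and to the TATA box TATAAA.
CEMIP: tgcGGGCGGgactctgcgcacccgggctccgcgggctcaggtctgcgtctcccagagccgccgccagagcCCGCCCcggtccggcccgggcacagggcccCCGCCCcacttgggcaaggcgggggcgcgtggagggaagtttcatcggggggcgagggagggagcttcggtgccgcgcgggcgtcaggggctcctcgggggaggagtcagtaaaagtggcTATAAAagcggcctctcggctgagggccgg
The window holds 3 GC boxes and a TATA box that begins 30 bases before the start, and 74.4% of its bases are G or C. Of 35116 promoter windows of this length in the RefSeq table, 42.6% hold a GC box and 10.7% hold TATAAA on either strand, and the median G and C content is 58.0%.

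In DU145KO+α2 the CEMIP level was 336, 229, 323 and 269 CPM in replicates 1 to 4. In the vector line it was 95.1, 43.3, 32.1 and 39.1 CPM. In DU145KO it was 200.3, 138, 83.4 and 101 CPM. The DU145KO+α2 samples did not overlap either other line, DU145KO lay between, and its lowest sample lay below the highest vector-line sample. Groups that do not overlap were found in 17.2% of all tested genes for DU145KO+α2 against the vector line and in 12.9% against DU145KO, and between the lines without α2, where none of the 8 genes separated, in 8.76%. The means were 289 ± 49.7 CPM in DU145KO+α2, 131 ± 51.7 CPM in DU145KO and 52.4 ± 28.8 CPM in the vector line (SD, n = 4).

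CEMIP was higher in DU145KO+α2 than in the vector line by 2.46 on the log2 scale (SE 0.38, 95% confidence interval 1.61 to 3.30, adjusted p = 0.00224, edgeR). The call held without each of the 12 samples in turn (2.28 to 2.93). Against DU145KO the log2 difference was 1.14 (SE 0.36, 95% confidence interval 0.34 to 1.95), which missed the threshold at an adjusted p of 0.0891. The corresponding value of the vector line against DU145KO was −1.31 (SE 0.37, 95% confidence interval −2.14 to −0.49, adjusted p = 0.112), so that the lines without α2 stood 2.49-fold apart in the fit. Whether these 2 differences passed depended on the tool. Under 9 other settings of the fit, the difference from DU145KO had an adjusted p below 0.05 in 4 for DU145KO+α2 and in 3 for the vector line. DESeq2 and limma with voom were among them in both. The two-sided exact permutation test of log2 CPM gave p = 0.0286 for DU145KO+α2 against either line, the smallest value that 4 against 4 samples allow, and 0.0571 for the vector line against DU145KO.

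Samples that carry the same replicate number resembled each other across lines, so each comparison was also fitted with that number as a block. There CEMIP was also higher in DU145KO+α2 than in DU145KO (log2 difference 1.22, adjusted p = 0.0179, against 22.3% of all genes called) and lower in the vector line than in DU145KO (−1.36, adjusted p = 0.0237, against 13.4% of all genes called). Leaving out 1 replicate number in that fit kept the first of these calls in 2 of 4 cases and the second in 1 of 4. Without a block, leaving out vector-line replicate 1 alone brought both under the threshold (1.15, adjusted p = 0.0267, and −1.78, adjusted p = 0.0167). The DU145KO+α2 sample held 3.53, 5.27, 10.05 and 6.87 times the CEMIP CPM of the vector-line sample of the same number. It held 1.68, 1.65, 3.87 and 2.65 times that of the DU145KO sample. The vector-line sample was below DU145KO in 4 of 4 pairs, by 2.11 to 3.19 times.

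**Figure D2:**
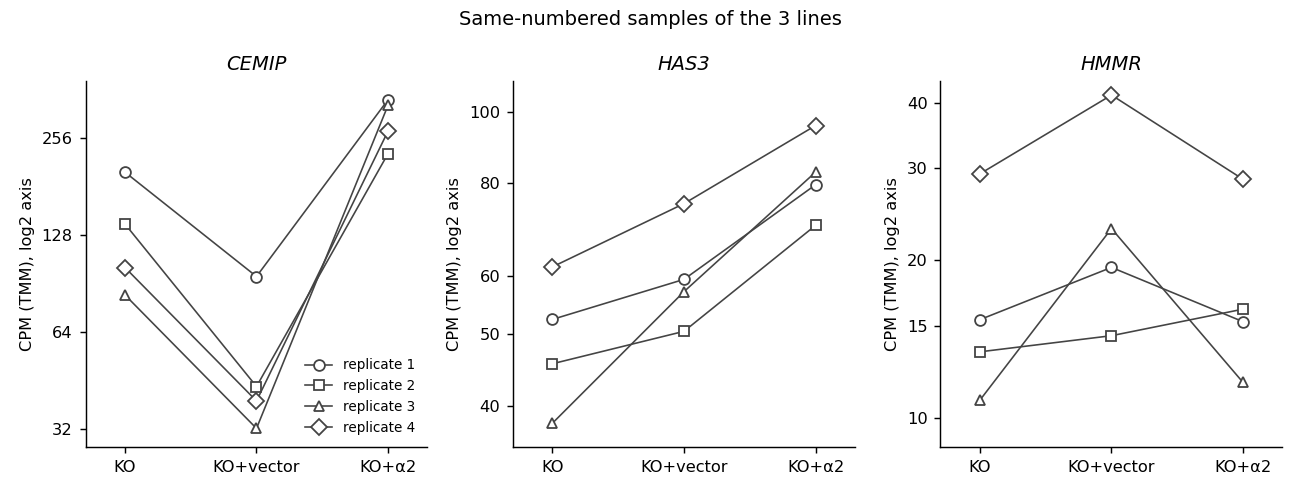
CPM of CEMIP, HAS3 and HMMR on log2 axes, with a line joining the samples of the same replicate number in DU145KO, DU145KO+vector and DU145KO+α2. CEMIP falls and then rises along all 4 lines and HAS3 rises along all 4, while HMMR is highest in DU145KO+vector in replicates 1, 3 and 4.

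The position of CEMIP was examined next, since ARNT2, a transcription factor gene on the same chromosome arm, was among the 3 genes whose log2 CPM followed CEMIP most closely over the 12 samples. These were AMPH, MIDN and ARNT2 (Pearson's r of 0.98 each, a description over 12 samples that share library and line). The window of 1000 kb to each side was chosen after these values had been seen. Of the 12 other tested genes in it, 2 were higher and 1 was lower in DU145KO+α2 than in the vector line. In the same line 1 was higher than in DU145KO, and none differed between the vector line and DU145KO. Of all tested genes, 11.9%, 8.17% and 2.34% were called in these 3 comparisons.

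ABHD17C, the nearest tested gene upstream, starts 84.1 kb before CEMIP and encodes a depalmitoylating enzyme. It was higher in DU145KO+α2 than in the vector line by 1.23 on the log2 scale (SE 0.18, adjusted p = 0.00112, edgeR) and higher than in DU145KO by 0.67 (adjusted p = 0.0412). ARNT2, which starts 375.0 kb before CEMIP, was higher than in the vector line by 0.68 (adjusted p = 0.00152) and stood at 0.40 against DU145KO (adjusted p = 0.0525). ABHD17C and ARNT2 thus had log2 differences of the sign of CEMIP in all 3 comparisons, with −0.55 and −0.28 in the vector line against DU145KO. Downstream, MESDC2 (now MESD), which lies on the opposite strand and shares 2.94% of the CEMIP exon bases, stood at −0.13 against the vector line (adjusted p = 0.307), and TMC3-AS1, 545.0 kb away, was lower (log2 difference −0.87, adjusted p = 0.0488). The median log2 difference of the 100 tested genes around CEMIP on the chromosome was −0.01 between DU145KO+α2 and the vector line.

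**Figure D3:**
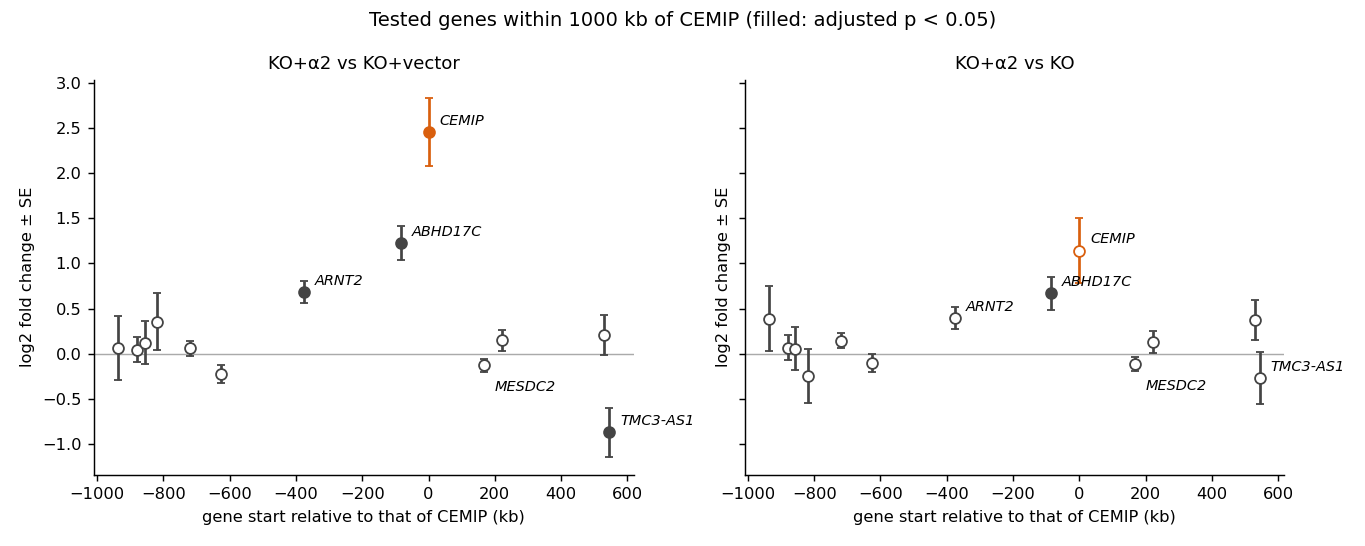
Log2 fold change ± SE of the tested genes whose start lies within 1000 kb of that of CEMIP, against the distance between starts in kb, for DU145KO+α2 against DU145KO+vector (left) and against DU145KO (right), with filled points where the adjusted p was below 0.05. ARNT2, ABHD17C and CEMIP stand above the other genes in the left panel, at 0.68, 1.23 and 2.46.

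HAS3 encodes a hyaluronan synthase of the plasma membrane. The gene lies on chromosome 16 from 69105653 to 69118719 on the plus strand (GRCh38), and 7.02% of its exon bases are shared with CHTF8 on the opposite strand. The kit keeps the strand, but whether the counting used it is not given in the sources used here, and CHTF8 had a log2 difference of 0.01 between DU145KO+α2 and the vector line (adjusted p = 0.960). The 250 bases before the RefSeq start (GRCh38.p14, chr16:69107290-69107539, plus strand) are printed for the other gene past the test, with the GC box in capitals. The RefSeq start lies inside the GENCODE bounds given above, so this window falls within the annotated gene.
HAS3: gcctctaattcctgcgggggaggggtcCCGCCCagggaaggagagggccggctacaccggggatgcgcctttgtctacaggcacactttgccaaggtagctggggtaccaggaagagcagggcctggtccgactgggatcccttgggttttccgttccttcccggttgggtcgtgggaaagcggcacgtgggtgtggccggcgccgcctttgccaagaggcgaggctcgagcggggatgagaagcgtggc
This window holds 1 GC box and no TATAAA, and 66.0% of its bases are G or C. The AP-1 motif TGANTCA was found in none of the 8 windows of these genes (6.57% of all windows), which says only that the letters are not there.

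The HAS3 level was 79.6, 70.2, 82.8 and 95.7 CPM in DU145KO+α2. It was 59.3, 50.4, 57.1 and 75.1 CPM in the vector line and 52.4, 45.6, 37.9 and 61.7 CPM in DU145KO. All DU145KO+α2 samples were above all DU145KO samples, and a single vector-line sample, replicate 4, reached into the range of DU145KO+α2. The means were 82.1 ± 10.6, 60.5 ± 10.4 and 49.4 ± 10.1 CPM in DU145KO+α2, the vector line and DU145KO (SD, n = 4).

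HAS3 was higher in DU145KO+α2 than in DU145KO by 0.73 on the log2 scale (SE 0.15, 95% confidence interval 0.41 to 1.05, adjusted p = 0.00659, edgeR), a fold of 1.66, and the call held without each of the 12 samples in turn (0.62 to 0.86). Against the vector line the log2 difference was 0.44 (SE 0.15, 95% confidence interval 0.12 to 0.76, adjusted p = 0.0701). The vector line stood at 0.29 above DU145KO (SE 0.15, adjusted p = 0.386). The exact permutation test, two-sided, gave p = 0.0286 against DU145KO, 0.0571 against the vector line and 0.200 between the lines without α2.

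With the replicate number as a block, HAS3 was higher in DU145KO+α2 than in the vector line as well (0.45, adjusted p = 0.000103, against 26.5% of all genes called) and higher in the vector line than in DU145KO (0.29, adjusted p = 0.0120). Leaving out 1 replicate number kept these calls in 4 of 4 and 3 of 4 cases. The DU145KO+α2 sample held 1.34, 1.39, 1.45 and 1.28 times the HAS3 CPM of the same-numbered vector-line sample, and the vector line held 1.13, 1.11, 1.51 and 1.22 times that of DU145KO. The order of the lines was therefore the same in the 4 replicate numbers, and it differed from that of CEMIP, for which the vector line was lowest. HAS3 also varied with the replicate number over the 3 lines (adjusted p = 0.000889 in the blocked fit), as did 35.7% of all tested genes. Replicate 4 was its highest sample in each line. The genes closest to HAS3 over the 12 samples were EOMES, SOCS2 and KCNH1 (r of 0.98, 0.96 and 0.96).

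HAS2, the main synthase of many mesenchymal cells, was close to the limit of detection. It had 2, 17, 9 and 19 reads in DU145KO, 6, 8, 22 and 11 reads in DU145KO+α2 and 11, 7, 17 and 27 reads in the vector line. The 3 lines overlapped throughout. HAS2 shares 5.92% of its exon bases with HAS2-AS1 on the opposite strand, which had at most 7 reads in any library. Whether the counting used the strand is not given in the sources used here, so the few reads of HAS2 are less certain. The log2 difference between DU145KO+α2 and the vector line was −0.50 with a 95% confidence interval of −1.66 to 0.65 (adjusted p = 0.633, edgeR). HAS1 had at most 2 reads in any library and did not pass the filter. HAS3 was thus the synthase with the most reads per length, at 9.999 RPKM in DU145KO, 16.8 in DU145KO+α2 and 12.3 in the vector line, against 0.214, 0.211 and 0.300 RPKM for HAS2.

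CD44, the main hyaluronan receptor, lies on chromosome 11 from 35138882 to 35232402 on the plus strand (GRCh38). Its level was 222, 155, 177 and 156 CPM in DU145KO+α2, 231, 175, 137 and 137 CPM in the vector line and 215, 203, 183 and 143 CPM in DU145KO. The lines overlapped, and replicate 1 was the highest sample in each of them. The log2 difference of DU145KO+α2 was 0.06 against the vector line (95% confidence interval −0.34 to 0.46, adjusted p = 0.882, edgeR) and −0.07 against DU145KO (95% confidence interval −0.47 to 0.33, adjusted p = 0.889). CD44 differed between the replicate numbers over the 3 lines (adjusted p = 0.00559, blocked fit), as did 35.7% of all tested genes. Its closest genes were SMPDL3A, NDUFS4 and CRELD1 (r of 0.93, 0.93 and 0.92).

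The values for CD44 are for the whole gene and do not resolve the exon variants of the receptor. Of 8 regulators of CD44 splicing, ESRP1, an epithelial splicing factor that promotes inclusion of the variable exons, was lower in DU145KO+α2 than in DU145KO (log2 difference −3.65, SE 0.26, adjusted p = 6.57e-07, edgeR) and lower in the vector line than in DU145KO (−3.001, SE 0.24, adjusted p = 1.21e-05). ESRP1 was at 5.21 ± 0.965 CPM in DU145KO, 0.409 CPM in DU145KO+α2 and 0.649 CPM in the vector line (n = 4), and the other 7 regulators did not pass the test in either comparison. Between DU145KO+α2 and the vector line none of the 8 passed, and the median log2 difference was −0.00 (0.01 against DU145KO). With the block, 1 was higher and 2 were lower against DU145KO, where 22.3% of all tested genes were called. Of 7 genes for cytoskeletal linkers and sheddases of CD44, among them EZR and MSN, none passed in any of the 3 comparisons (edgeR). With the block, 1 was lower in DU145KO+α2 than in the vector line and 1 was higher and 1 lower than in DU145KO. For DU145KO+α2 against the vector line, 11.9% of all tested genes were called without the block and 26.5% with it. These shares were 8.17% and 22.3% for DU145KO+α2 against DU145KO, and 2.34% and 13.4% for the vector line against DU145KO.

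HMMR, the receptor that also acts in spindle assembly, lies on chromosome 5 from 163460203 to 163491941 on the plus strand (GRCh38). Its level was 15.4, 13.4, 10.8 and 29.3 CPM in DU145KO. In DU145KO+α2 it was 15.3, 16.1, 11.7 and 28.6 CPM, and in the vector line it was 19.4, 14.4, 23.0 and 41.4 CPM. Replicate 4 was highest in every line, by 2.44 to 2.88 times the lowest sample of that line, and the lines overlapped. The log2 difference between DU145KO+α2 and the vector line was −0.45 (SE 0.41, adjusted p = 0.564, edgeR), and that between the vector line and DU145KO was 0.51 (SE 0.41, adjusted p = 0.646). Between DU145KO+α2 and DU145KO it was 0.05 (95% confidence interval −0.87 to 0.97).

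With the replicate number as a block, HMMR was lower in DU145KO+α2 than in the vector line (−0.44, adjusted p = 0.0486) and higher in the vector line than in DU145KO (0.52, adjusted p = 0.0415). Each of these calls held in 1 of 4 cases when a replicate number was left out, with adjusted p up to 0.221 and 0.138. HMMR also varied with the replicate number over the 3 lines (adjusted p = 0.000828, blocked fit), as did 35.7% of all tested genes. The median log2 difference of the 100 tested genes around HMMR on chromosome 5 was −0.07, −0.20 and −0.15 for DU145KO+α2 against the vector line, DU145KO+α2 against DU145KO and the vector line against DU145KO.

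HMMR followed the genes of mitosis. Over the 12 samples, its log2 CPM had a median r of 0.96 (0.90 to 0.98) with 20 mitosis genes, against a median of −0.00 with all tested genes. Its closest genes were PRC1, KIFC1 and TTK, all of the spindle and each at 0.98, and PRC1 and TTK are themselves among the 20. These values are a description, since the 12 samples share their replicate numbers and lines. The mean log2 CPM of the 20 genes was 5.51, 5.46 and 5.86 in replicate 4 of DU145KO, DU145KO+α2 and the vector line and 4.01 to 5.03 in the other 9 samples, and in each line 20 of 20 genes were highest in replicate 4. None of the 20 passed the test between the lines in the fit without the block (edgeR). With it, 1 was lower in DU145KO+α2 than in the vector line and 4 were higher in the vector line than in DU145KO (26.5% and 13.4% of all genes were called there), and the median log2 difference of the list without the block was −0.33 and 0.38 in these comparisons. The part of the mitosis genes in the HMMR differences was not tested. Of 10 partners of HMMR at the spindle none passed without the block (median log2 difference −0.21 from the vector line and 0.01 from DU145KO), and with it 4 were lower in DU145KO+α2 than in the vector line and 2 were higher in the vector line than in DU145KO, beside the same shares of all genes.

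**Figure D4:**
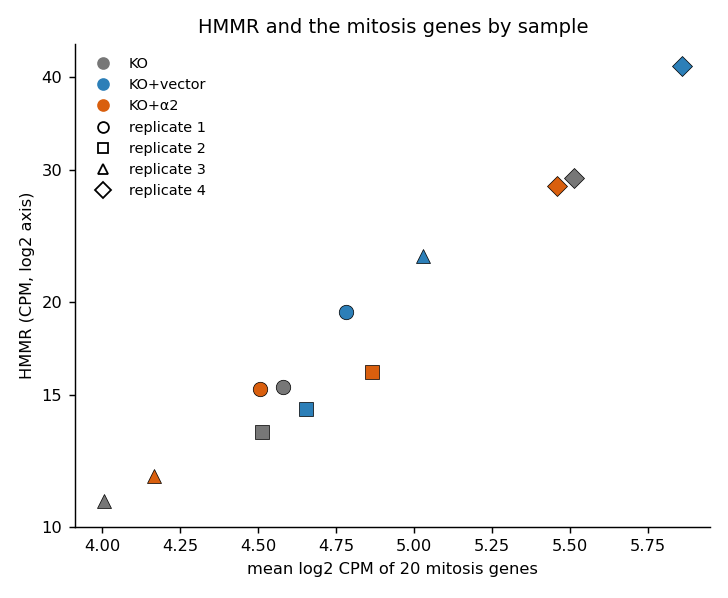
HMMR (CPM on a log2 axis) against the mean log2 CPM of 20 mitosis genes in the 12 spheroid samples, with the line as the colour and the replicate number as the symbol. The 3 replicate 4 samples (HMMR at 28.6 to 41.4 CPM) lie at the upper right, and the samples of the 3 lines lie along the same band.

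The promoter window of HMMR is printed because the genes of the mitosis list varied with it (RefSeq, GRCh38.p14, chr5:163460382-163460631, plus strand). The GENCODE start of HMMR, 163460203, lies before this window, which thus falls within the annotated gene. Capitals mark the CCAAT box CCAAT, the CHR element TTTGAA of cell cycle genes, the GC box GGGCGG and the TEAD motif GGAATG, each searched on both strands.
HMMR: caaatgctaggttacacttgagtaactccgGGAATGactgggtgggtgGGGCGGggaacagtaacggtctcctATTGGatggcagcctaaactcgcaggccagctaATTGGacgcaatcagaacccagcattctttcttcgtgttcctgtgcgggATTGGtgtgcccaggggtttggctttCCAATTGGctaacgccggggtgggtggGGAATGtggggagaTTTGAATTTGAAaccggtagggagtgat
The window holds 5 CCAAT matches, a pair of which overlap on opposite strands, and 2 adjacent CHR matches that begin 28 and 22 bases before the start. It was the single window of the 8 with a CCAAT box (32.0% of all windows) or with a CHR element (13.3% of all windows), while a GC box was found in 7 of the 8 and GGAATG in 3 (11.9% of all windows). HYAL3 has 2 windows in the table and HAS2 has none.

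HYAL1, HYAL2 and HYAL3 lie side by side on the minus strand of chromosome 3, from 50292831 to 50322782 (GRCh38). HYAL2, a hyaluronidase anchored to the cell surface that cuts long chains, was at 81.5, 77.1, 65.8 and 71.6 CPM in DU145KO+α2, 85.5, 74.8, 68.4 and 83.4 CPM in the vector line and 94.1, 63.7, 66.1 and 82.1 CPM in DU145KO. The lines overlapped and replicate 1 was highest in each. HYAL2 varied with the replicate number over the 3 lines (adjusted p = 0.00386, blocked fit), as did 35.7% of all tested genes. Its log2 difference between DU145KO+α2 and the vector line was −0.08 (95% confidence interval −0.33 to 0.17, adjusted p = 0.758, edgeR), the narrowest interval of the 8 genes. HYAL2 shares 11.5% of its exon bases with TUSC2 on the same strand, which stood at −0.12 (adjusted p = 0.474).

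HYAL1, the lysosomal hyaluronidase, had 15 to 40 reads in the 12 libraries. In reads, replicates 1 to 4 had 31, 18, 19 and 40 in DU145KO, 19, 29, 23 and 25 in DU145KO+α2 and 15, 21, 16 and 21 in the vector line. The log2 difference between DU145KO+α2 and the vector line was 0.27 (95% confidence interval −0.36 to 0.90, adjusted p = 0.644, edgeR). HYAL3, whose own enzyme activity is uncertain, was at 6.43 to 9.42 CPM in DU145KO+α2, 6.19 to 7.42 CPM in the vector line and 6.17 to 8.07 CPM in DU145KO, with a log2 difference of 0.18 (95% confidence interval −0.13 to 0.49, adjusted p = 0.503, edgeR) between the first of these lines and the vector line. HYAL3 shares 11.8% of its exon bases with NAT6 (now NAA80) on the same strand, so its counts are less certain. The closest genes were TESK2, IFFO2 and TBC1D9 for HYAL1 (r of 0.87, 0.85 and 0.85), PLEKHA4, ANXA4 and COX6B1 for HYAL2 (0.93, 0.92 and 0.89), and TIMM50, CCDC106 and MFSD10 for HYAL3 (0.90, 0.88 and 0.88). For HAS2 they were CDK11A, ZNF440 and PUS7L (0.91, 0.90 and 0.90).

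**Figure D5:**
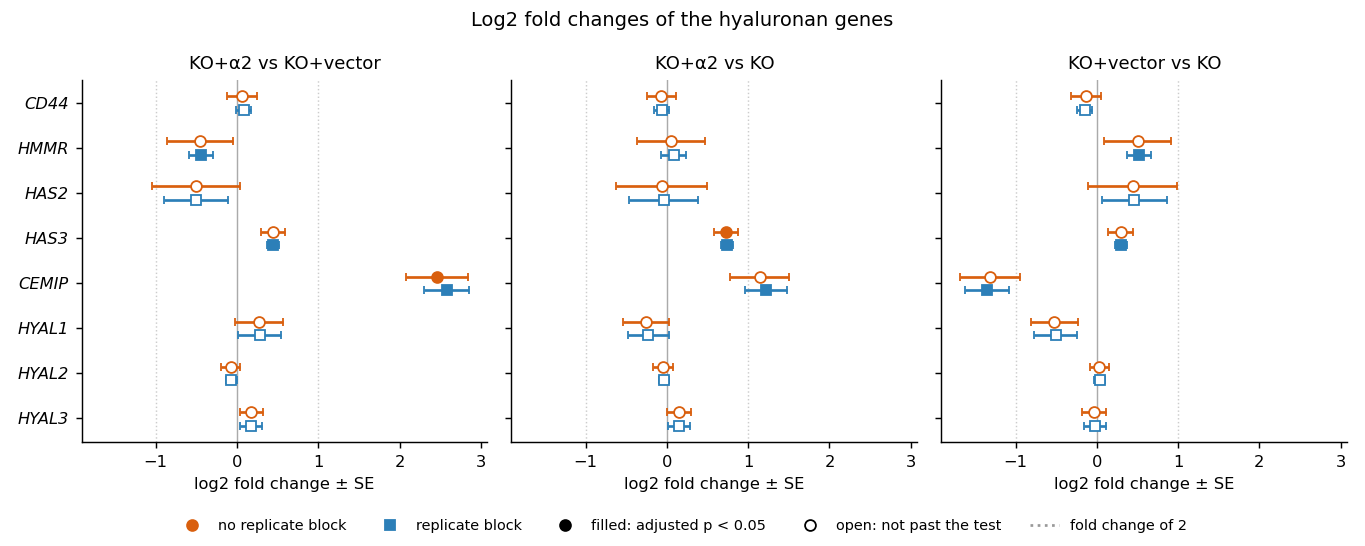
Log2 fold change ± SE of the 8 hyaluronan genes in the 3 comparisons, from the edgeR fit without (circles) and with (squares) the replicate block, filled where the adjusted p was below 0.05, with dotted lines at a fold change of 2. Without the block, CEMIP at 2.46 (DU145KO+α2 against DU145KO+vector) and HAS3 at 0.73 (DU145KO+α2 against DU145KO) are filled, and with it squares of CEMIP and HAS3 are filled in all 3 panels and those of HMMR in the first and last.

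The other genes of hyaluronan metabolism were described from lists of known members. Among 7 hyaluronan-cleaving proteins in the table, 5 were tested and CEMIP was the one called, in DU145KO+α2 against the vector line. There, 11.9% of all tested genes were called. TMEM2 (now CEMIP2), a cell surface relative of CEMIP, had a higher mean RPKM than CEMIP in each line (41.5, 40.9 and 40.2 in DU145KO, DU145KO+α2 and the vector line). In DU145KO+α2, however, the samples of TMEM2 (39.2 to 44.1 RPKM) overlapped those of CEMIP (31.5 to 46.8 RPKM). TMEM2 had a log2 difference of 0.02 between DU145KO+α2 and the vector line (SE 0.10, adjusted p = 0.926, edgeR). HYAL4 had at most 4 reads and SPAM1 none.

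GUSB and HEXA encode lysosomal exoglycosidases that degrade hyaluronan fragments from their ends. GUSB was lower in DU145KO+α2 than in both other lines, with a log2 difference of −0.45 from the vector line (adjusted p = 0.00132, edgeR) and of −0.41 from DU145KO (adjusted p = 0.00360). Its mean level was 104 CPM with α2, 143 CPM in the vector line and 139 CPM in DU145KO (n = 4). HEXA did not pass, at −0.13 and 0.07.

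Of 8 genes for the UDP-sugar precursors, 2 were higher in DU145KO+α2 than in the vector line, where 11.9% of all tested genes were called. UGDH, which makes UDP-glucuronate, was higher by 0.36 (adjusted p = 0.00834, edgeR), and UAP1, which makes UDP-N-acetylglucosamine, by 0.37 (adjusted p = 0.0183). Against DU145KO, UAP1 was higher by 0.35 (adjusted p = 0.0321) and GFPT2, of the first step of the hexosamine pathway, was lower (−0.45, adjusted p = 0.0111). The medians of the 8 genes were 0.00 and −0.07. Of 27 hyaluronan receptors and binding proteins 10 were tested, CD44 and HMMR included, and AMBP, the precursor of bikunin, was the one called. AMBP was lower in DU145KO+α2 than in the vector line (log2 difference −1.71, adjusted p = 0.00259, edgeR), at 0.753 against 2.51 CPM and with 1.27 CPM in DU145KO. It had 9 to 16 reads a library in DU145KO+α2, 27 to 46 in the vector line and 10 to 29 in DU145KO. Against DU145KO the difference of DU145KO+α2 was −0.75 and did not pass (adjusted p = 0.229, edgeR). Between the vector line and DU145KO no gene of the precursor, cleaving, synthase and binding lists passed the test in the fit without the block. With the block, the precursor list had 3 higher and 1 lower gene in the first comparison, 2 higher and 2 lower in the second and 3 lower in the third, while 26.5%, 22.3% and 13.4% of all tested genes were called. The binding list had 2 lower, none and 2 higher, HMMR and AMBP among those called. AMBP was then higher in the vector line than in DU145KO (0.98, adjusted p = 0.0155, edgeR). HEXA was also higher in the vector line than in DU145KO (0.20, adjusted p = 0.0176).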

How the data were processed

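Per the labels, total RNA of the spheroids was made into libraries with the Illumina TruSeq Stranded mRNA kit. The submitters' processing notes name bcl2fastq 1.8.4, TopHat2 2.1.0, Subread 1.5.0, edgeR, limma and the build hg38. The authors deposited raw read counts per gene and, from the same libraries, RPKM values, that is counts divided by library size and gene length. Whether reads were counted by strand is not given in the sources used here.

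The counts were tested in R 4.3.3 with edgeR 4.0.16, by the quasi-likelihood F-test with TMM scaling, a robust fit over all 12 samples with 1 term per line, and filterByExpr at a minimum of 10 counts. Adjusted p-values (Benjamini-Hochberg) cover all 14732 genes tested, and every adjusted p in the text without another tool named is from this test. CPM are TMM-scaled, and RPKM served only to compare genes. The main test differs from the voom and limma test of the study, which was run as an alternative with limma 3.58.1, as was DESeq2 1.42.0. The scripts were tested on simulated data. The floor of 3 reads covers counting error only.

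Same-numbered samples correlated in their deviations from the line means in all 12 pairs (r of 0.13 to 0.55, mean 0.38, against a mean of −0.13 for different numbers), so the numbers were taken to pair the samples, and the fit with a replicate block is given where it changes a call. No sample repeated another of its line within sampling noise (chi-square statistic 7.39 to 25.4 times its degrees of freedom in 18 pairs).

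The 8 genes and all lists (synthases, cleaving proteins, lysosomal exoglycosidases, UDP-sugar supply, binding proteins, CD44 linkers and sheddases, CD44 splicing regulators, HMMR spindle partners, mitosis genes and cell type markers) were chosen with earlier results of these data known. The genes named were the 8, up to 5 per list and comparison past the test, the 3 genes best correlated with each of the 8, and ITGA2. Some of the genes sharing exon bases with the 8 were named as well. Other genes named for their list or place (TMEM2, HEXA, HAS1, HYAL4, SPAM1 and the CEMIP neighbours) were chosen after values had been seen. The motifs and promoters shown were also chosen after that. Genes were placed by Entrez identifier, which placed 99.5% of those tested, and exon positions are from GENCODE v44. The exoglycosidases are given for GUSB and HEXA only, and the list as a whole is not reported here.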

Additional observations from a re-analysis of the deposited data

How the results depend on the processing

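The counts of the 8 genes called depended on the fit. For DU145KO+α2 against the vector line 2 were called by the DESeq2 Wald test, 2 with the compared groups alone and 3 with the replicate block. Against DU145KO 2 were called by the DESeq2 Wald test, by voom with limma, with the compared groups alone and with the block, and 0 when a fold above 2 was also asked for. Between the vector line and DU145KO 1 was called by DESeq2, 1 by voom and 3 with the block. The block changed the calls of CEMIP, HAS3 and HMMR and of no other of the 8. Over all genes, the block gave 3911, 3286 and 1980 calls and the added fold threshold 325, 309 and 123, and DESeq2 gave 587 in the last comparison. Counts over all genes are not given here for voom, for the compared groups alone or for DESeq2 in the first 2 comparisons. Those counts of the 8 genes therefore have no background beside them. Leaving out 1 sample gave 1 to 2, 1 to 2 and 0 to 1 of the 8 genes and 1229 to 1841, 837 to 1197 and 160 to 528 of all genes, and leaving out 1 replicate number in the blocked fit, an alternative chosen after the data were seen, gave 2 to 3, 1 to 2 and 1 to 2 of the 8 and 2802 to 3393, 2245 to 2711 and 1010 to 1669 of all. The cause of these shifts was not tested.

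Among small differences, the sign changed when samples were left out. The log2 difference of DU145KO+α2 from the vector line ranged from −0.062 to 0.26 for CD44. That from DU145KO ranged over −0.19 to 0.039 for CD44, −0.62 to 0.43 for HAS2, −0.14 to 0.080 for HYAL2 and −0.26 to 0.44 for HMMR. The vector line minus DU145KO ranged over −0.028 to 0.93 for HAS2, −0.050 to 0.15 for HYAL2 and −0.089 to 0.070 for HYAL3. HAS2 against DU145KO was 0.084 by voom. Of 237 single-gene values under settings other than leaving out samples, 222 were unchanged and 13 passed the threshold. A further 1 no longer passed it, and 1, HAS2 by voom, turned. The unchanged values include differences less the median of the neighbouring genes. These have no adjusted p and were counted as unchanged where the shift was below the spread within lines. HAS3 against the vector line passed without DU145KO replicate 3 (adjusted p = 0.0356), DU145KO replicate 4 (0.0395) or vector-line replicate 4 (0.0245). HAS2 and HYAL1 rest on 2 to 40 reads a library.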
